A study of Mus musculus with 7 samples.

Results

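Sensory neurons of the dorsal root ganglia, the clusters of nerve cell bodies beside the spinal cord, are told apart during development by a small set of transcription factors. 10 of these factors are described here: Isl1, Pou4f1, Pou4f2, Pou4f3, Runx1, Prdm12, Drgx, Tlx3, Shox2 and Maf, out of 54309 genes in the deposited table. They were chosen by gene name. 9 were listed under these symbols, and Drgx was listed as Prrxl1, a symbol for which RefSeq gives Drgx as a synonym. Expression was measured by RNA sequencing in 7 libraries of L4-6 ganglia from C57bl/6 mice labelled male and 6 to 8 weeks old. All mice had a sciatic nerve injury and were examined 72 h later. The injury and the dissection fell at Zeitgeber time (ZT, hours after lights on) 20 in 4 libraries and at ZT 8 in 3, so the comparison asks how these factors differ with the time of day in injured ganglia. Both groups were injured and no uninjured ganglia enter the comparison, so an effect of injury itself cannot be read from it. The cells were dissociated with enzymes and enriched for neurons on an albumin gradient. The labels do not say whether a library came from 1 animal or from several, so p-values measure the spread between these libraries, which may be technical in part.

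As background, Isl1 and Pou4f1 are homeodomain proteins present in nearly all sensory neurons, where they close the neurogenic programme and open the programme of sensory genes. Prdm12, Runx1, Drgx and Tlx3 act in the lineage of nociceptors, the neurons that sense painful stimuli. Shox2 and Maf act in neurons that sense touch. In adult ganglia these factors help to maintain the receptor and channel genes of each neuron type.

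Values are TPM, a transcript abundance scaled for transcript length and for the total of the library, so levels can be compared between genes. Differences are ZT20 minus ZT8 in log2(TPM + 1), a scale that understates the change of low genes, tested with limma over the 14800 genes whose mean reached 1 TPM. A gene is said to have passed when its Benjamini-Hochberg adjusted p was under 0.05. All 10 factors reached that mean. The number of genes above 0 TPM was 24192 to 25238 per library at ZT20 and 18297 to 22973 at ZT8, with the lowest number in ZT8 replicate 2. Sequencing depth cannot be read from TPM. Among the tested genes 2433 passed, 1899 higher and 534 lower at ZT20, and the median difference of all tested genes was 0.23. Markers of sex went against the label male in ZT20 replicates 2, 3 and 4. The Y-linked gene Ddx3y was listed at 0 in ZT20 replicates 3 and 4, while it was at 11.7 to 24.2 TPM in the other 5 libraries. Xist, the RNA that silences an X chromosome in female cells, reached 1.08, 2.21 and 2.30 TPM in replicates 2, 3 and 4 of ZT20 and at most 0.00467 TPM elsewhere. ZT20 replicate 2 held both Xist and Ddx3y, the latter at 11.7 TPM. As no ZT8 library held Xist above 0.00208 TPM, differences with sex and with the time of day cannot be fully told apart. Without ZT20 replicates 3 and 4 the log2 differences of Pou4f1, Runx1, Prdm12 and Maf were 1.64, 1.30, 1.16 and 1.22, and without replicate 2 as well they were 1.29, 1.25, 1.21 and 1.32. In the fit without ZT20 replicates 3 and 4 no gene passed by limma, and the other fit leaves 1 ZT20 library.

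4 of the 10 factors were higher at ZT20 by limma with Benjamini-Hochberg adjustment: Pou4f1, Runx1, Prdm12 and Maf, each about 2.2- to 2.6-fold on the fitted scale. The share of all tested genes that passed as higher at ZT20 was 12.8%. 0 factors passed as lower, a direction in which 3.61% of all tested genes passed. At an unadjusted p under 0.05 by limma Tlx3 alone was lower, as were 1274 of the 14800 tested genes. For 5 of the 10 factors every ZT20 library lay above every ZT8 library, as for 24.5% of all tested genes. The reverse held for 0 of the 10, against 8.72% of all tested genes. The median difference of the 10 factors was 0.52. The other 6 factors did not pass. Isl1 and Drgx stood within their spread between the libraries, while the values of Shox2 and Tlx3 varied most between the ZT8 libraries. In bulk tissue, fewer cells of a type and less RNA per cell cannot be told apart.

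**Figure D1:**
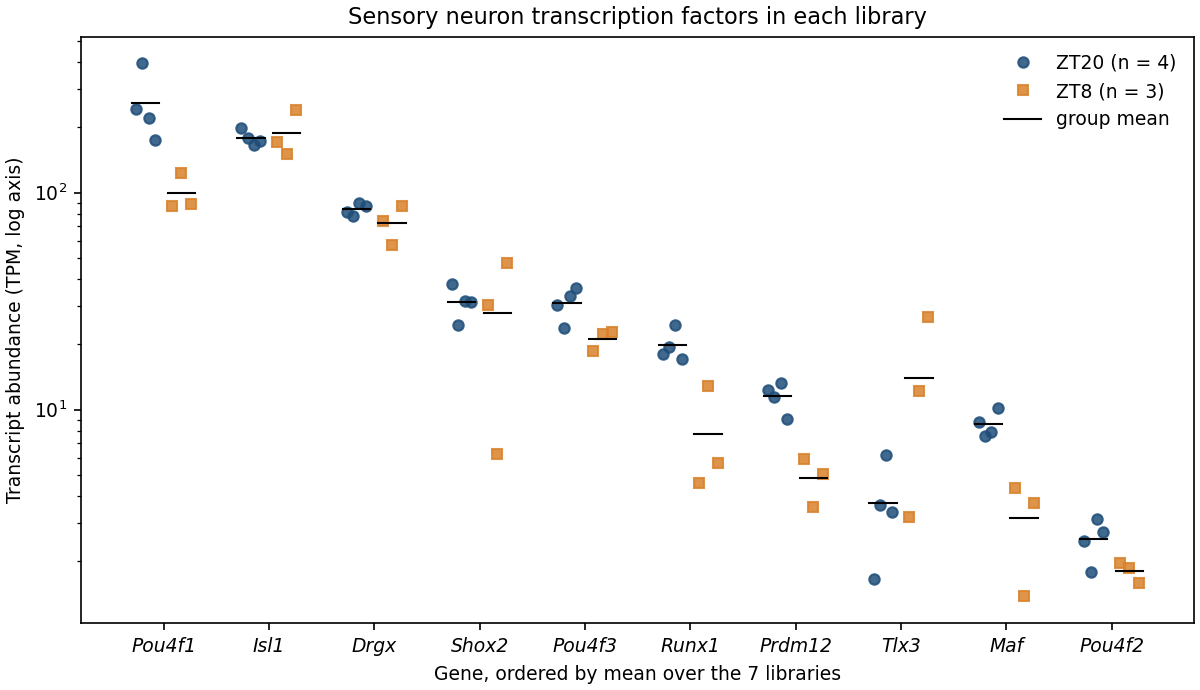
Transcript abundance of the 10 factors in TPM on a log axis, with circles for the 4 ZT20 libraries, squares for the 3 ZT8 libraries and short lines for group means. Genes are ordered by their mean over the 7 libraries, from Pou4f1 at 190.2 TPM to Pou4f2 at 2.22 TPM, and the groups are separate for Pou4f1, Pou4f3, Runx1, Prdm12 and Maf.

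The order of the levels, as mean TPM over all 7 libraries, was Pou4f1 (190.2), Isl1 (182.8), Drgx (79.1), Shox2 (29.9), Pou4f3 (26.8), Runx1 (14.6), Prdm12 (8.67), Tlx3 (8.15), Maf (6.27) and Pou4f2 (2.22). Only Isl1 stood above Drgx, and Drgx above Shox2, without any overlap over the 7 libraries. The other neighbours in this order overlapped in their ranges. Pou4f1 was above Isl1 in 4 of 7 libraries, which were the 4 ZT20 libraries. Pou4f1 and Isl1 were higher than 92.9% and 92.7% of the tested genes, whereas Pou4f2 was higher than only 14.7%.

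Pou4f1, also known as Brn3a, is the POU homeodomain factor shared by most sensory neurons. Its level in TPM, by replicate number, was 243, 394, 221 and 175 at ZT20 and 87.1, 123 and 89.0 at ZT8. Values of the other factors are given in the same order. Every ZT20 library was above every ZT8 library, and ZT20 replicate 2 stood highest. The ZT20 mean was 258 ± 94.7 TPM (SD, n = 4), and the ZT8 mean 99.5 ± 19.97 TPM (SD, n = 3). The log2 difference was 1.32 with a standard error of 0.26 and a limma adjusted p of 0.0146, and it was 1.09 above the median of all genes. Pou4f1 passed in each of the 7 fits that left out 1 library, with log2 differences from 1.09 to 1.48. Without ZT20 replicates 3 and 4 its limma adjusted p was 0.112. After a correction of each library for transcript length and GC content it was 0.89 and did not pass (limma adjusted p = 0.112).

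The paralogs Pou4f2 and Pou4f3, best known from retinal ganglion cells and inner-ear hair cells, were at lower levels. Pou4f3 was at 30.2, 23.8, 33.3 and 36.3 TPM at ZT20 and at 18.6, 22.4 and 22.8 TPM at ZT8. All ZT20 libraries were above all ZT8 libraries, though ZT20 replicate 2 was close to ZT8 replicate 3. Its log2 difference of 0.51 (standard error 0.18) did not pass (limma adjusted p = 0.0810). Without ZT20 replicate 2 it was 0.63 and passed (limma adjusted p = 0.0468). Pou4f2 was at 2.48, 1.79, 3.13 and 2.72 TPM at ZT20 and at 1.96, 1.86 and 1.599 TPM at ZT8. Its ranges overlapped and the difference of 0.32 did not pass (limma adjusted p = 0.368). Members of this family share sequence, so reads assigned among them carry some uncertainty.

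Isl1, the LIM homeodomain factor that works beside Pou4f1, did not share its difference. It was at 199, 178, 166 and 174 TPM at ZT20 and at 171, 151 and 241 TPM at ZT8. The ZT20 libraries all lay inside the ZT8 range, which was set by ZT8 replicates 2 and 3. The log2 difference was −0.041 with a 95% interval from −0.42 to 0.34 (limma adjusted p = 0.880). Without ZT8 replicate 3 the sign turned to 0.15.

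Because both values come from 1 library, the level of a factor relative to Isl1 does not depend on a common scaling of that library. This ratio was computed after the values were seen and is given without a test. TPM of Pou4f1 divided by TPM of Isl1 was 1.22, 2.21, 1.33 and 1.01 in the ZT20 libraries and 0.508, 0.814 and 0.369 in the ZT8 libraries. Pou4f1 thus outweighed Isl1 in each ZT20 library and fell short of it in each ZT8 library. Of the 9 ratios to Isl1, 4 were separate between the groups, all with ZT20 above: those of Pou4f1, Runx1, Prdm12 and Maf. Over the 14799 other tested genes, 21% of ratios to Isl1 had ZT20 above and 2.89% had it below without overlap. The ratio of Prdm12 to Isl1 was 0.0523 to 0.0799 at ZT20 and 0.0211 to 0.0346 at ZT8, with a gap between the groups. The ratio of Drgx to Isl1 was 0.412 to 0.538 at ZT20 and 0.360 to 0.431 at ZT8, and its ranges overlapped.

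**Figure D2:**
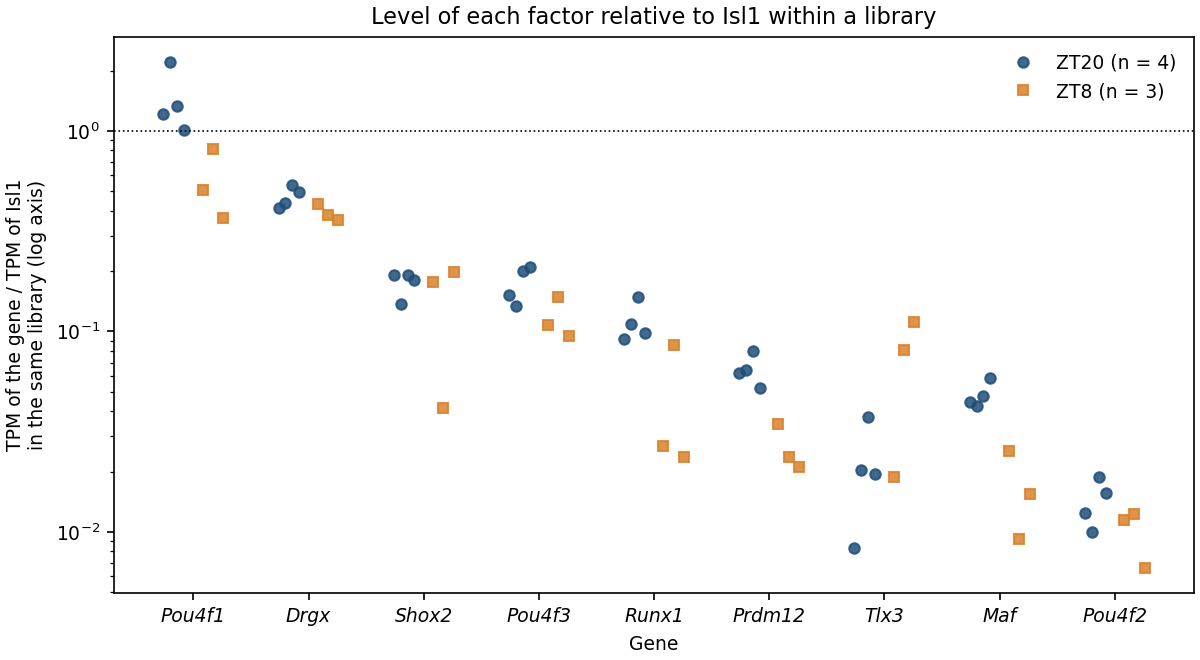
TPM of each factor divided by TPM of Isl1 in the same library, on a log axis, with circles for the 4 ZT20 libraries and squares for the 3 ZT8 libraries; the dotted line marks a ratio of 1. Pou4f1 lies between 1.01 and 2.21 at ZT20 and between 0.369 and 0.814 at ZT8.

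Runx1 is the runt-domain factor that sets up the nonpeptidergic nociceptors, the neurons with Mrgpr receptors, and is also a factor of blood cells. It was at 18.1, 19.4, 24.5 and 17.1 TPM at ZT20 and at 4.58, 12.9 and 5.69 TPM at ZT8. The groups did not overlap, and ZT8 replicate 2 stood apart from the other ZT8 libraries by more than 2-fold. The ZT20 mean was 19.8 ± 3.28 TPM (SD, n = 4), and the ZT8 mean 7.71 ± 4.498 TPM (SD, n = 3). The log2 difference was 1.36, with an SE of 0.31 (limma adjusted p = 0.0231). Of the fits that left out 1 library, only the one without ZT8 replicate 2 passed, at 1.76 (limma adjusted p = 0.00346). In the other 6 the difference was 1.10 to 1.42 and the limma adjusted p was 0.0514 to 0.0796. Under median-ratio scaling, the length and GC correction and scaling to neuronal markers it was 1.14, 0.82 and 0.91, and none passed (limma adjusted p = 0.0517, 0.154 and 0.144). An antisense gene on the opposite strand, Gm26626, reached at most 0.115 TPM.

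Prdm12, a PR-domain regulator without which nociceptors do not form, was at 12.3, 11.5, 13.2 and 9.08 TPM at ZT20 and at 5.93, 3.58 and 5.07 TPM at ZT8. The lowest ZT20 library was about 1.5 times the highest ZT8 library. The ZT20 mean was 11.5 ± 1.79 TPM (SD, n = 4), and the ZT8 mean 4.86 ± 1.19 TPM (SD, n = 3). The log2 difference was 1.11, with an SE of 0.22 (limma adjusted p = 0.0150). Corrected for length and GC content, the difference of Prdm12 was 0.90 and still passed (limma adjusted p = 0.0279), alone among the 10 factors. Without ZT20 replicate 3 it was 1.04 and did not pass (limma adjusted p = 0.0628). Gm13425, an antisense gene that overlaps Prdm12, moved the same way, at 9.13, 5.91, 11.6 and 8.17 TPM at ZT20 and 4.22, 0.0632 and 2.52 TPM at ZT8. The strand setting of the counting is not given in the sources used here, so reads of these 2 genes cannot be told apart with certainty.

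Drgx, a paired-type homeodomain factor needed for the wiring of nociceptors to the dorsal horn, was at 81.7, 77.9, 89.2 and 86.6 TPM at ZT20. It was at 73.9, 57.4 and 86.7 TPM at ZT8, so ZT8 replicate 3 lay inside the ZT20 range. The difference of 0.22 (95% interval −0.13 to 0.57) did not pass (limma adjusted p = 0.332) and was close to the median of all genes. It was 0.065 without ZT8 replicate 2 and 0.36 without ZT8 replicate 3. It turned to −0.0080 under median-ratio scaling and to −0.23 under scaling to neuronal markers.

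Tlx3, a homeobox factor of nociceptors and of excitatory dorsal horn neurons, had the most uneven values. It was at 1.66, 3.63, 6.21 and 3.37 TPM at ZT20 and at 3.21, 12.2 and 26.8 TPM at ZT8. ZT8 replicates 2 and 3 were above all ZT20 libraries, while ZT8 replicate 1 was within their range. The highest of the 7 libraries was 16.2 times the lowest. The log2 difference of −1.38 (standard error 0.60) did not pass (limma adjusted p = 0.140). Without ZT8 replicate 1 it was −2.11 and passed as lower (limma adjusted p = 0.0276), and without ZT8 replicate 3 it was −0.75 (limma adjusted p = 0.345).

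Shox2 marks and shapes the touch neurons that carry the receptor TrkB. It was at 37.8, 24.5, 31.8 and 31.2 TPM at ZT20 and at 30.3, 6.24 and 47.5 TPM at ZT8. The ZT20 libraries were close together, and ZT8 replicates 2 and 3 held the lowest and the highest of all values. The difference of 0.52 (standard error 0.55) did not pass (limma adjusted p = 0.528). Without ZT8 replicate 2 it turned to −0.29. Shox2 overlaps Rsrc1 on the opposite strand, which was at 38.9 to 42.9 TPM at ZT20 and at 35.1, 26.02 and 38.7 TPM at ZT8, with a difference of 0.33 that did not pass (limma adjusted p = 0.179).

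Maf, the large Maf protein that drives the development of touch receptors and is also made by macrophages and T cells, was at 8.81, 7.57, 7.91 and 10.2 TPM at ZT20. It was at 4.36, 1.38 and 3.72 TPM at ZT8, below all ZT20 libraries and lowest in ZT8 replicate 2. The ZT20 mean was 8.61 ± 1.16 TPM (SD, n = 4), and the ZT8 mean 3.16 ± 1.57 TPM (SD, n = 3). The log2 difference was 1.29, with an SE of 0.30 (limma adjusted p = 0.0249). It did not pass without ZT20 replicate 1, 3 or 4, where it was 1.27, 1.32 and 1.21 (limma adjusted p = 0.0670, 0.0749 and 0.0822). After the length and GC correction it was 0.70 (limma adjusted p = 0.146). Gm15655, an antisense gene overlapping Maf, went the other way: it was listed at 0 in all 4 ZT20 libraries and at 1.36, 1.88 and 2.97 TPM at ZT8. With a mean under 1 TPM it was not tested, and how reads were shared between Maf and Gm15655 is not known.

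**Figure D3:**
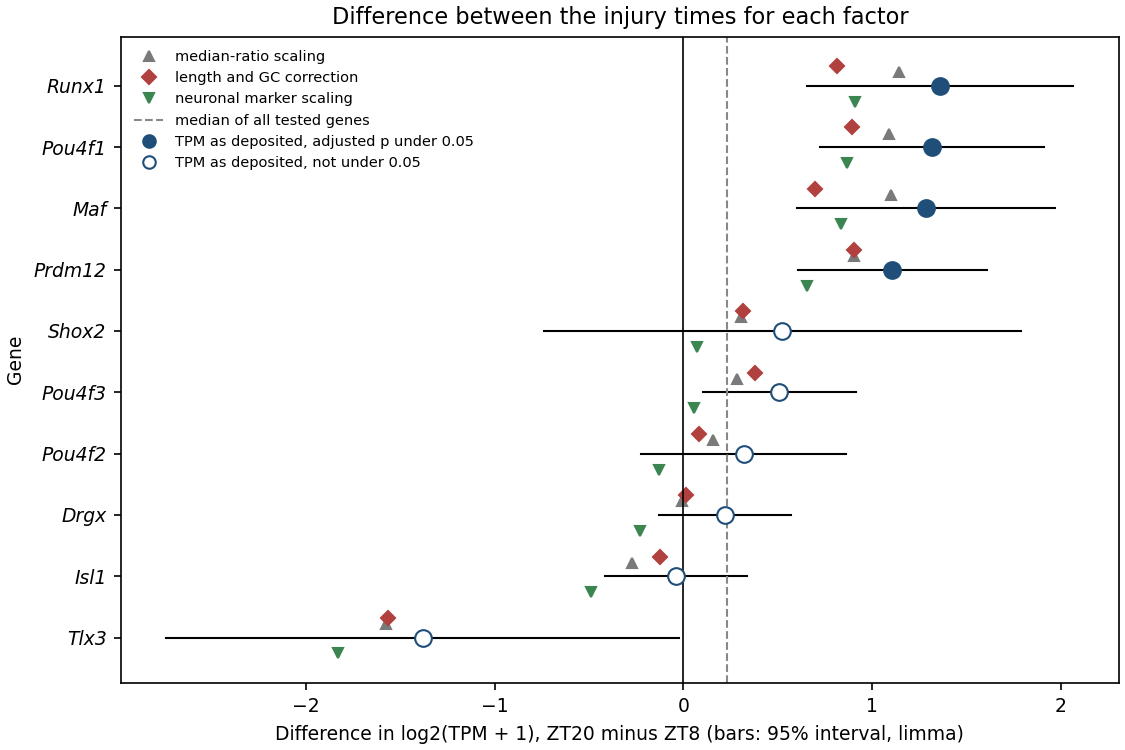
Difference in log2(TPM + 1), ZT20 minus ZT8, for each factor, with 95% limma intervals as bars, filled circles for an adjusted p under 0.05, and smaller marks for 3 other ways of scaling. Runx1, Pou4f1, Maf and Prdm12 lie at 1.11 to 1.36 and move toward 0 under each of the 3, Tlx3 lies at −1.38 with a wide interval, and the dashed line is the median of all tested genes at 0.23.

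ZT8 replicate 2 was often the lowest library, among the factors as among all genes. It held the lowest value of 5 of the 10 factors, namely Isl1, Prdm12, Drgx, Shox2 and Maf, and of 41.2% of all tested genes. It also held the lowest value for 15 of 27 other sensory factors, 9 of 19 touch and proprioception genes and 9 of 26 nociceptor genes, and the highest for 3 of those 26, against 20.1% of all tested genes. The same library had the fewest genes above 0 TPM, and the part of this in the values was not tested. Leaving it out raised the difference of Runx1 and lowered those of Shox2 and Maf, to 1.76, −0.29 and 0.93.

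**Figure D4:**
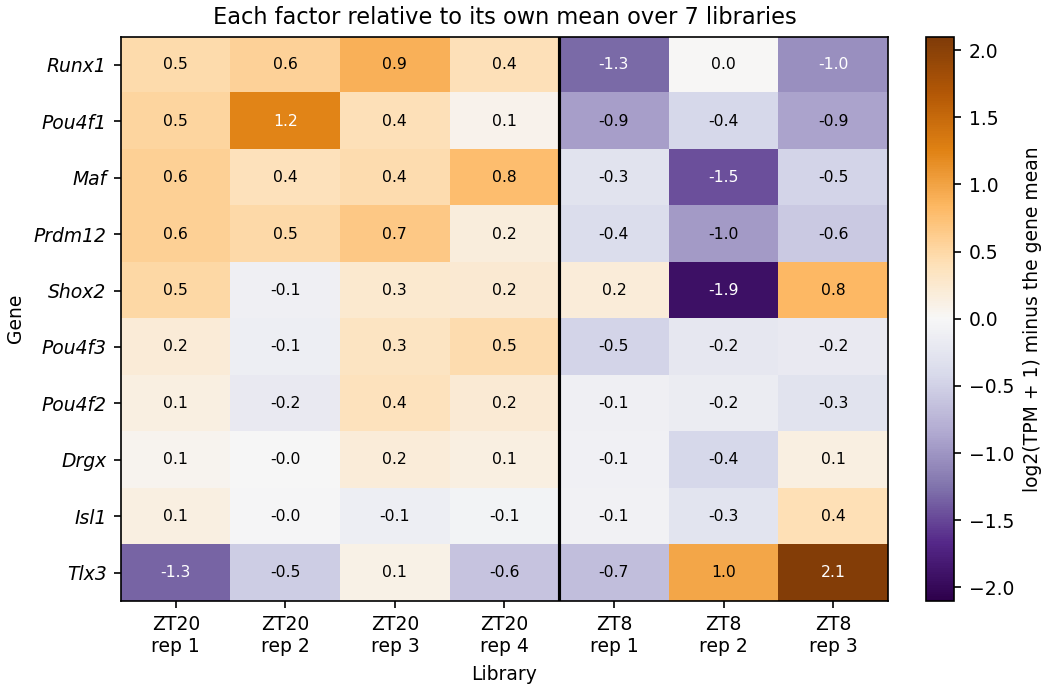
Each factor in each library as log2(TPM + 1) minus the mean of that gene over the 7 libraries, with ZT20 libraries left of the black line and ZT8 libraries right of it. Runx1, Pou4f1, Maf and Prdm12 are positive in all 4 ZT20 libraries, Shox2 reaches −1.92 in ZT8 replicate 2 and Tlx3 reaches 2.05 in ZT8 replicate 3.

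The factors were read beside 3 lists of genes of the same neurons. Of 34 other sensory transcription factors and their partners, 27 were tested, and 8 rose at ZT20 and 0 fell by limma, with 0 lower at an unadjusted p under 0.05. The 8 became 3 with scaling to neuronal markers, 4 with length and GC content corrected, and 1 with that correction and the replicate number as a block. The median difference of that list was 0.67, against 0.23 for all tested genes, of which 16.4% passed in either direction. Zfhx3, a zinc-finger homeodomain factor, was at 12.2 to 19.2 TPM at ZT20 and 2.92 to 5.04 TPM at ZT8, and its log2 difference was 1.84 (limma adjusted p = 0.00363). Esrrg, an orphan nuclear receptor, Meis1, a homeodomain cofactor of Hox proteins, and Tshz2, a teashirt zinc-finger factor, rose by 1.78, 1.31 and 1.24 on the same scale. Runx3, the Runx1 relative of proprioceptors, had a difference of 0.50 that did not pass (limma adjusted p = 0.334). Isl2, the nearest relative of Isl1, had a difference of −0.11 with overlapping ranges (limma adjusted p = 0.792). Cbfb, the partner subunit of Runx proteins, had a difference of 0.16 (limma adjusted p = 0.325).

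Of 26 nociceptor genes, all tested, 10 rose and 0 fell by limma, with 0 lower at an unadjusted p under 0.05 and a median difference of 0.68. The sodium channel Scn11a was at 56.9, 61.3, 75.9 and 66.8 TPM at ZT20 and at 28.9, 35.4 and 21.6 TPM at ZT8. Its groups did not overlap and its log2 difference was 1.18 (limma adjusted p = 0.00769). Plxnc1, a semaphorin receptor of nonpeptidergic neurons, and the heat and capsaicin receptor Trpv1 rose by 1.15 and 0.94. The largest fitted difference was that of the neuropeptide Sst, 1.61, which was listed at 0 in ZT8 replicate 2, so its size depends on the added constant. Mrgprd, a receptor that depends on Runx1 during development, was at 73.6 to 113 TPM at ZT20 and 48.2 to 67.7 TPM at ZT8. Its difference of 0.61 did not pass (limma adjusted p = 0.0599). The peptide genes Calca, Calcb, Tac1 and Gal had differences of 0.089, −0.43, 0.043 and −0.22, and none passed. After the length and GC correction 2 of the 26 passed, and after scaling to neuronal markers also 2.

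Of 19 touch and proprioception genes, all tested, 5 rose and 0 fell by limma, with 1 lower at an unadjusted p under 0.05, and the median difference was 0.20. Scaling to neuronal markers gave 2 higher and 5 lower, and correcting for length and GC content 2 and 2. The heavy neurofilament Nefh was at 653, 672, 620 and 650 TPM at ZT20 and at 230, 194 and 360 TPM at ZT8. Its groups were far apart, with a log2 difference of 1.36 (limma adjusted p = 0.00569). The secreted protein gene Tafa1, the GDNF coreceptor Gfra1 and the neurotrophin-3 receptor Ntrk3 rose by 1.26, 0.93 and 0.76. Ntrk2, which encodes TrkB, the receptor of the Shox2 lineage, was at 45.3 to 67.6 TPM at ZT20 and 45.9 to 71.0 TPM at ZT8. Like Shox2, it did not pass (limma adjusted p = 0.796). Pvalb, the calcium-binding protein of proprioceptors, had a difference of −0.58 that did not pass over all genes (limma adjusted p = 0.0750).

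**Figure D5:**
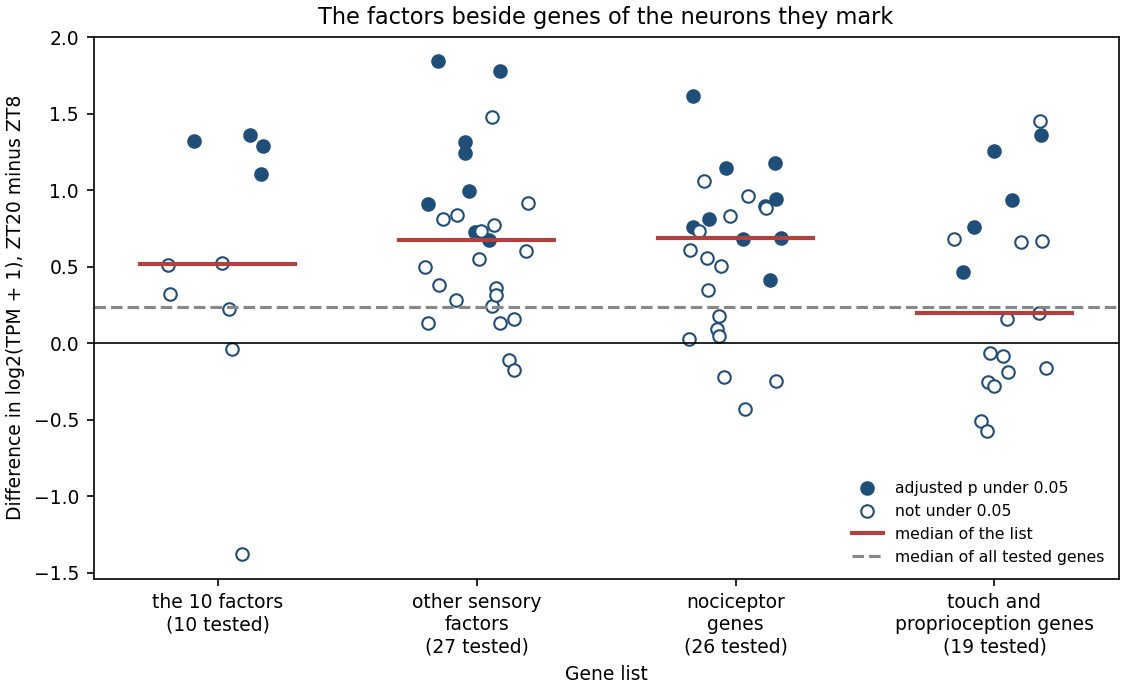
Difference in log2(TPM + 1), ZT20 minus ZT8, for each tested gene of the 10 factors and of 3 lists, with filled circles for an adjusted p under 0.05. Red lines are list medians, 0.52, 0.67, 0.68 and 0.20 from left to right, and the dashed line is the median of all tested genes at 0.23.

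Among markers of other cells, those of satellite glia, the cells that wrap each sensory neuron, differed between the groups in part. The sum of 10 satellite glia markers was 7590 to 9289 TPM at ZT20 and 12895 to 15613 TPM at ZT8, and 3 of the 10 passed as lower. Most of that sum was Apoe, at 6261 to 7615 TPM at ZT20 and 10623 to 13557 TPM at ZT8. The markers Kcnj10, Gja1 and Cadm2 had positive differences of 0.21, 0.31 and 0.96 that did not pass, and for Cadm2 every ZT20 library was above every ZT8 library. The sum of 11 neuronal markers was 17300 to 21821 TPM at ZT20 and 12823 to 19584 TPM at ZT8, and 3 of the 11 passed as higher. None of the neuronal markers was at 0 in all libraries. When each library was scaled to its mean neuronal marker level, the differences of Pou4f1, Runx1, Prdm12 and Maf were 0.87, 0.91, 0.66 and 0.83, and only Maf passed (limma adjusted p = 0.113, 0.144, 0.0583 and 0.0465). The same scaling moved the median of all tested genes to −0.22 and Isl1 to −0.49 (limma adjusted p = 0.0520). Measured from the median of all tested genes, Pou4f1 stood at 1.09 in the deposited TPM, 1.05 under median-ratio scaling, 1.09 under neuronal marker scaling and 0.90 once corrected for length and GC content. In the same order Runx1 stood at 1.13, 1.11, 1.13 and 0.82, Prdm12 at 0.87, 0.87, 0.87 and 0.91, and Maf at 1.05, 1.07, 1.05 and 0.71. Neuronal marker scaling shifts all genes of a library alike, so it cannot change this distance, and the 4 factors were singled out because they passed as higher. The sum of 11 macrophage markers, relevant for Runx1 and Maf, was 349 to 695 TPM at ZT20 and 373 to 855 TPM at ZT8 and overlapped. Lyz2 was the largest part of that sum in each library, with a difference of 0.01. Mrc1 passed as higher, at 1.79 to 4.76 TPM at ZT20 and 0.0805 to 0.732 TPM at ZT8, with a difference of 1.40 (limma adjusted p = 0.0259). C1qa passed as lower, 3 markers were lower at an unadjusted p under 0.05 (C1qa, C1qb and Aif1), and none was at 0 in all libraries. The sum of 7 T and NK cell markers was 8.53 to 51.2 TPM at ZT20 and 25.97 to 95.7 TPM at ZT8, and 0 of the 6 tested passed by limma, with 0 lower at an unadjusted p under 0.05. The sum of Schwann cell markers overlapped between the groups, with 1 of 9 tested passing as higher. B and plasma cell markers summed to 174 to 384 TPM at ZT20 and 352 to 843 TPM at ZT8, and 1 of 5 tested passed as lower. Fibroblast markers (5 tested) and endothelial and mural markers (3 tested) had 0 that passed by limma, with 1 fibroblast marker lower and 1 endothelial and mural marker higher at an unadjusted p under 0.05. The part of non-neuronal RNA in the Runx1 and Maf values was not tested.

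Transcript length also moved with the differences. When tested genes were split into 10 groups by longest transcript, the median difference of a group ran from −0.13 in the second-shortest group to 0.69 in the longest. Runx1 (5861 nt) and Maf (6360 nt) fell in a group with a median of 0.56 and Pou4f1 (4445 nt) in one with 0.47. Prdm12 (2471 nt), Isl1 (2516 nt) and Pou4f3 (2360 nt) shared a group with a median of 0.079.

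For each factor the tested gene with the most similar profile was found as the smallest root-mean-square difference of centred log2(TPM + 1) over the 7 libraries. That gene was Gigyf1 for Pou4f1 (0.099), Myt1 for Runx1 (0.14), Prpf8 for Maf (0.099) and Gm10524 for Prdm12 (0.097). It was Ddx27 for Isl1 (0.059), Tle5 for Drgx (0.013), Ppp1r16a for Pou4f2 (0.048), Znhit6 for Pou4f3 (0.075), Kndc1 for Shox2 (0.13) and Dcun1d5 for Tlx3 (0.42). No factor had another of the 10 as its nearest gene. Among the 10 factors, Pou4f1 and Runx1 were each the nearest to the other, at 0.41, and so were Prdm12 and Maf at 0.31, Isl1 and Drgx at 0.19, and Pou4f2 and Pou4f3 at 0.17. These distances do not set the pairs apart: between 282 and 1572 tested genes lay at least as close to each of these 8 factors as its nearest fellow factor. Isl1 was about as far from a flat profile, at 0.20, as from Drgx. Tlx3 stood farthest from the rest, at 1.03 from its nearest factor.

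The DNA before the transcript starts of Pou4f1, Runx1 and Prdm12, which rose, is shown beside that of Isl1, which did not pass, because the design sets the time of day and clock factors bind E-box and D-box motifs. RefSeq sequences (GRCm38.p6) were used for 8 of the 10 factors, all but Maf and Pou4f3, in 9 windows of 250 bases before the start. The motifs searched on both strands were the E-box CACGTG, the D-box TTATGTAA, the RUNX motif TGTGGT, the homeodomain core TAATTA and CCAAT. Of 32851 windows of the same length, 6.02%, 0.819%, 14.0%, 4.84% and 33.8% held them. Matches are in capitals, and the Isl1 window ends before the first base that GENCODE counts as transcript.
Pou4f1 (chr14:104468000-104468249, minus strand): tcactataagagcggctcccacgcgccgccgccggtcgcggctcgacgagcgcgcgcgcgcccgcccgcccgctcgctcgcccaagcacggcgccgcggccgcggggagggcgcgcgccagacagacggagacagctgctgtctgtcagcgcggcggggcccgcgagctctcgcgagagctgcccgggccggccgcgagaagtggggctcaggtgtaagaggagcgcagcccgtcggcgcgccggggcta
Runx1 at the downstream start (chr16:92697330-92697579, minus strand): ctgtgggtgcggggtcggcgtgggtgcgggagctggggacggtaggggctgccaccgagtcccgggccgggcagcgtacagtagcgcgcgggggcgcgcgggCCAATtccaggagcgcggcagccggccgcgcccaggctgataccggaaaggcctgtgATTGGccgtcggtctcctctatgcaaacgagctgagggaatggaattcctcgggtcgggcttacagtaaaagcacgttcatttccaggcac
Prdm12 (chr2:31639787-31640036, plus strand): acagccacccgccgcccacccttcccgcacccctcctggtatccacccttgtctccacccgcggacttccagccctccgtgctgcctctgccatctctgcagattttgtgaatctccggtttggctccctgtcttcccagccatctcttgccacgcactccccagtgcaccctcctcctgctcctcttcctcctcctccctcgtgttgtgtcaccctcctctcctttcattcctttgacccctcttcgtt
Isl1 (chr13:116309690-116309938, minus strand): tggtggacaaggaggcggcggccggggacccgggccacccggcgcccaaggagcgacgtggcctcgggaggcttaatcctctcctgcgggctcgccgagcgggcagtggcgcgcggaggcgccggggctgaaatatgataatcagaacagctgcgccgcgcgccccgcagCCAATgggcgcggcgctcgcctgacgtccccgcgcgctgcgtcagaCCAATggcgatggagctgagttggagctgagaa
Runx1 at the upstream start, around the E-box (chr16:92826131-92826154, minus strand): cacttaagtCACGTGATTGGcaag
The E-box at the upstream Runx1 start, with the first base of the motif 71 bases before the start, was the only E-box among the 9 windows, and it runs directly into a CCAAT match in reverse complement. It lies inside a longer first exon that GENCODE gives to another Runx1 transcript. The Pou4f1 and Prdm12 windows held 0 matches to any of the 5 motifs, and no window held a D-box or the homeodomain core. Both Isl1 matches and both matches at the downstream Runx1 start are CCAAT or its reverse complement. The Pou4f1 window was 78.0% G and C, against a median of 52.4% over all windows. The Prdm12 window lies within the antisense gene Gm13425. A match of letters does not show that a factor binds there, and a window without one says nothing about sites elsewhere.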

How the data were processed

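The authors deposited 1 table of TPM values, with 1 column per library and 54309 genes. Per the submitters' processing notes, FastQC 0.11.9, Trim Galore 0.6.6, Salmon 1.6.0, DESeq2 1.34.0 and the build GRCm39 were used; the annotation release and strand setting are not given in the sources used here. TPM columns share 1 total, so a rise in some genes lowers the others, and depth is unknown. The 7 columns were mapped to samples by name, and 0 were left unused.

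From these values log2(TPM + 1) was computed, the 14800 genes whose mean reached 1 TPM were kept, and ZT20 was compared with ZT8 by limma 3.58.1 (intensity trend, two-sided, Benjamini-Hochberg over all tested genes) in R 4.3.3. The procedure was tested on simulated data. The 10 factors, the lists and the tests were chosen with earlier results of these data known. Named from each list are the 4 largest differences that passed; further genes named beside them and among the markers were picked after their values were seen. Overlaps, length and GC content came from GENCODE M21 (GRCm38), so no gene coordinates are given; promoter coordinates are those of RefSeq's table. The alternatives were pseudocount 0.1, no filter or a mean of 5 TPM, median-ratio, quantile and neuronal marker scaling, a loess correction (span 0.3) for length and GC content (known for 99.6% of tested genes), the replicate number as a block, array weights, no trend, a threshold of 0.10, and leaving out libraries. Figures were drawn with matplotlib 3.10.9. Values of some genes of the lists are not reported here.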

Additional observations from a re-analysis of the deposited data

How the results depend on the processing

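The number of factors that passed as higher at ZT20 was 4. It was 2 without a filter, with quantile normalization and with the replicate number as a block, where 978 of 31897, 1023 of 14800 and 891 of 14800 genes passed as higher. It was 1 with scaling to neuronal markers (Maf), with the length and GC correction (Prdm12) and with that correction and the block together (Pou4f1), and 1 to 4 when 1 library was left out, where 624 to 3055 of all tested genes passed (4.22% to 20.6%). The same replicate numbers in the 2 groups are not known to pair the libraries. Same-numbered libraries deviated together with r = −0.014, 0.15 and 0.083, and only number 2 correlated best with its own. With so few libraries these values do not settle whether same-numbered libraries were handled together. The block fit takes nothing from ZT20 replicate 4, whose number has no ZT8 partner. Without ZT20 replicates 3 and 4, 0 factors and 0 genes of any list passed by limma. The fit without ZT20 replicates 2, 3 and 4 has 1 ZT20 library, whose spread is assumed to equal that of ZT8, and its calls are not given. The number lower was 0, and 0 to 1 when 1 library was left out. With array weights and at a threshold of 0.10, Pou4f3 passed as higher beside the 4 factors (limma adjusted p = 0.0211 and 0.0810). Under median-ratio scaling Runx1 alone of the 4 did not pass (limma adjusted p = 0.0517).

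Scaling changed the balance of all calls. Against 1899 higher and 534 lower, median-ratio scaling gave 1128 and 1160, quantile normalization 1023 and 814, scaling to neuronal markers 474 and 1902, and the length and GC correction 528 and 776. These scalings moved the median of all genes from 0.23 to 0.033, 0.0046, −0.22 and −0.0083. The number of genes that passed over all was 1178 of 31897 without a filter and 1174 of 14800 with the block. It was 520 of 14745 with the block and correction, 3899 of 14800 with array weights and 4079 of 14800 at a threshold of 0.10.

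Of 8 other sensory factors that passed, scaling to neuronal markers left 3, the length and GC correction 4, and the correction with the block 1; leaving out 1 library gave 6 to 11. Of 10 nociceptor genes, no filter and the block each left 6, scaling to neuronal markers and the length and GC correction each 2, and the correction with the block 0; leaving out 1 library gave 4 to 12. Leaving out libraries aside, the genes counted here for these 2 lists were all higher and among the 8 and the 10. Of 5 touch and proprioception genes, no filter and the block each left 3. The block with the correction gave 3, of which 1 was higher and 2 lower, and array weights gave 8, of which 7 were higher. Leaving out 1 library gave 2 to 7, and the 7, without ZT8 replicate 2, were 6 higher and 1 lower. Median-ratio scaling gave 4 higher and 1 lower. Scaling to neuronal markers gave 2 higher and 5 lower, and the length and GC correction 2 and 2.

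Signs turned for 4 factors. The Isl1 difference ran from −0.18 to 0.15 when 1 library was left out (0.15 without ZT8 replicate 3), and was 0.033 without ZT20 replicates 3 and 4, and 0.11 without ZT20 replicates 2, 3 and 4. Pou4f2 was −0.13 with scaling to neuronal markers. Drgx was −0.0080 with median-ratio scaling and −0.23 with scaling to neuronal markers. Shox2 was −0.054 with array weights and ran from −0.29 (without ZT8 replicate 2) to 1.09 when 1 library was left out. Pou4f1 passed in 17 of 21 alternatives, Prdm12 in 16, Maf in 11 and Runx1 in 6, and the difference of each was positive in all 21. The cause of these changes was not tested. Unknown depth limits what can be said of the lowest levels, those of Pou4f2 and of the genes under 1 TPM.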

Other observations

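Several listed factors of early sensory neurons lay under the level needed for a test, and their values were picked out after they were seen. Insm1, a zinc-finger factor of neurons that are still forming, was at 0.642, 1.23, 1.16 and 1.27 TPM at ZT20 and at 0.0652, 0.114 and 0.219 TPM at ZT8. Neurog1, the proneural factor of the nociceptor lineage, was at 1.04, 0.622, 0.611 and 0.826 TPM at ZT20 and at 0.220, 0.224 and 0.293 TPM at ZT8. The ranges did not overlap for either gene, but the share of such genes among those under 1 TPM was not computed. Every ZT8 library also had fewer genes above 0 TPM (at most 22973) than any ZT20 library (at least 24192). Neurod1, which Pou4f1 holds down in the embryo, was at 0.144 to 0.668 TPM at ZT20 and at 0 to 1.204 TPM at ZT8 and overlapped. Neurog2 was listed at 0 in all 7 libraries.

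Bcl11b, a zinc-finger factor of sensory neurons, had a log2 difference of 1.48 that did not pass (limma adjusted p = 0.0938). It was at 7.44 to 11.0 TPM at ZT20, at 6.03 and 4.46 TPM in ZT8 replicates 1 and 3, and at 0.210 TPM in ZT8 replicate 2, the library in which Shox2 and Maf were also lowest. Trpm8, the cold receptor, went the other way in that library, at 4.75 TPM, against 0.898 and 0.821 TPM in the other ZT8 libraries and 3.82 to 4.74 TPM at ZT20.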
